A study of Mus musculus with 8 samples.

Results

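The proteasome genes of tdTomato-positive mouse brain cells are described here, that is, every gene row whose symbol has the form Psm, a letter from a to g and a number, with or without a further letter. The rule found 49 of 53507 gene rows. They comprise 8 genes of the 20S alpha rings, 7 of the constitutive 20S beta rings, 3 of the immunoproteasome (Psmb8, Psmb9 and Psmb10), the thymoproteasome gene Psmb11, 6 ATPases and 11 other subunits of the 19S cap, 3 assembly chaperones of the cap, 5 activators, the inhibitor Psmf1 and 4 assembly chaperones of the 20S core. RNA was sequenced from cells that the labels call progenitors, positive for the red fluorescent protein tdTomato, with 2 libraries in each of 4 groups. The groups are wild type at embryonic day 13 (E13), wild type at embryonic day 15 (E15), day 12 after birth in a normal atmosphere (P12 normoxia) and the same age following chronic hypoxia (P12 hypoxia). The hypoxic pups were kept at 10% oxygen for 8 days, from P3 to P11, and the mothers of control and hypoxic litters were swapped at P6 and P9 as foster mothers. All groups carry the tdTomato label, and the labels give neither the allele nor the promoter that drives it.

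The proteasome is the barrel-shaped protease that degrades proteins tagged with ubiquitin. Alpha subunits form the gated outer rings of its 20S core, and beta subunits form the inner rings, of which Psmb5, Psmb6 and Psmb7 carry the active sites. The 19S cap recognises ubiquitin, removes it and unfolds the substrate with its ring of ATPases. In cells exposed to interferon, Psmb8, Psmb9 and Psmb10 replace the constitutive active subunits and form the immunoproteasome. Subunits are built into the particle in fixed proportions, and neural progenitors rely on it to remove cell-cycle regulators and fate-determining factors.

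Gene rows held 36252027 to 47084796 counts per library. Levels are given as CPM, counts per mega-count of a library size scaled by TMM, and a gene with no count could at this depth still hold up to 3 counts, or 0.0482 to 0.111 CPM depending on the library. These limits cover counting error only. The P12 libraries were less even than the embryonic ones, with at least 10 counts for 11695 to 16468 genes against 17520 to 18318, and their TMM factors were 0.6393 to 0.8482 against 1.322 to 1.383. Across all genes, replicates correlated with r = 0.946 at E13, 0.955 at E15, 0.771 in normoxia and 0.696 in hypoxia, a description over genes, which are not independent replicates. Nothing in the labels says whether replicates came from separate animals, so p-values measure only the spread between these libraries, which may be technical. Of 8 progenitor markers fixed for the check of cell identity, all had counts in each library. They summed to 242 to 323 CPM in the embryo and 3820 to 5070 CPM at P12, where Slc1a3 alone had 2410 to 3430 CPM. The makeup of the libraries differed. Astrocyte markers summed to 10.6 to 40.0 CPM in the embryo and 7780 to 10200 CPM at P12, and neuron markers to 2620 to 3010 CPM and 267 to 687 CPM. Mural-cell markers summed to 0.34 to 2.6 CPM and 1020 to 2520 CPM, almost all of the latter from Rgs5, with Kcnj8 at 0 in each P12 library. The part of this shift in any difference between P12 and embryo below was not tested, and in bulk samples fewer cells of a type and less RNA per cell cannot be told apart.

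Of the 49 genes, 45 passed the low-count filter. The other 4 were Psmb8, Psmb9, Psmb11 and Psma8, the last 2 known from thymus and testis. Psmb11 had no count in any library, and Psma8 had 6 counts in E13 replicate 1 and none elsewhere. Leaving out Psmb10 of the immunoproteasome, 44 constitutive genes remained.

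In the embryo these 44 genes held nearly the same level in each of the 4 libraries. The highest embryonic library exceeded the lowest by 1.02-fold to 1.6-fold, with a median of 1.16-fold, and 41 of the 44 genes stayed under 1.5-fold. Psma3, an alpha-ring subunit, had 81.7 and 83.4 CPM at E13 and 83.2 and 82.9 CPM at E15. Per kilobase of exon, the highest embryonic mean was that of the beta subunit Psmb2 (148 CPM per kilobase) and the lowest that of the cap-assembly chaperone Psmd9 (6.31 CPM per kilobase). These lengths are unions of all annotated exons, so genes with many transcript forms come out lower.

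E15 was compared with E13 to ask whether proteasome expression shifted between these embryonic ages. The quasi-likelihood test of edgeR, with p-values adjusted by Benjamini-Hochberg, called 0 of 45 proteasome genes, against 0.0% of 19936 tested genes, and 0 of the 45 had an unadjusted p under 0.05, against 3.46%. DESeq2 and limma-voom also called 0 of the 45, where they called 1.87% and 4.69% of all tested genes. Log2 fold changes lay between -0.49 and 0.53 with a median of -0.04, while the median over all tested genes was 0.00. Both libraries of one age lay apart from both of the other for 6 genes higher at E15 and 17 lower, where 23.6% and 25.8% of all tested genes did so. The ATPases all had negative values, from -0.34 for Psmc2 to -0.06 for Psmc3. Psmc2 itself had 138 and 156 CPM at E13 and 112 and 121 CPM at E15. The deubiquitinase of the cap, Psmd14, had 225 and 262 CPM at E13 and 176 and 169 CPM at E15, a log2 fold change of -0.49 (SE 0.51). Psma7 of the alpha ring had 239 and 276 CPM at E13 and 194 and 200 CPM at E15, a log2 fold change of -0.39 (SE 0.25). The activator Psme1 went the other way, with 44.2 and 36.7 CPM at E13 and 52.3 and 58.5 CPM at E15 (0.45, SE 0.46). The 2 ages do not overlap for these 4 genes, and none of the differences passed (edgeR adjusted p = 1.0 for each). The SEs come from the fit of all 8 libraries, which also takes in the spread of the P12 libraries. In the edgeR fit of E13 and E15 only, they were 0.11 for Psmc2, 0.11 for Psmd14, 0.10 for Psma7 and 0.14 for Psme1. That fit called 0 of the 45 genes (1.25% of all tested genes), and 6 of the 45 had an unadjusted p under 0.05. Over all genes, 3688 of 18253 did. At P12, Psmc2 had 137 and 164 CPM in normoxia and 161 and 327 CPM in hypoxia, Psmd14 had 91.2 and 40.3 CPM and 144 and 71.2 CPM, and Psme1 had 37.8 and 31.1 CPM and 27.5 and 25.5 CPM. Cell-cycle markers summed to 1000 and 1140 CPM at E13 and 391 and 356 CPM at E15, intermediate-progenitor markers to 665 and 852 CPM and 399 and 267 CPM, and erythroid markers to 2240 and 7290 CPM and 20.1 and 85.5 CPM, and their part in these differences was not tested.

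**Figure D1:**
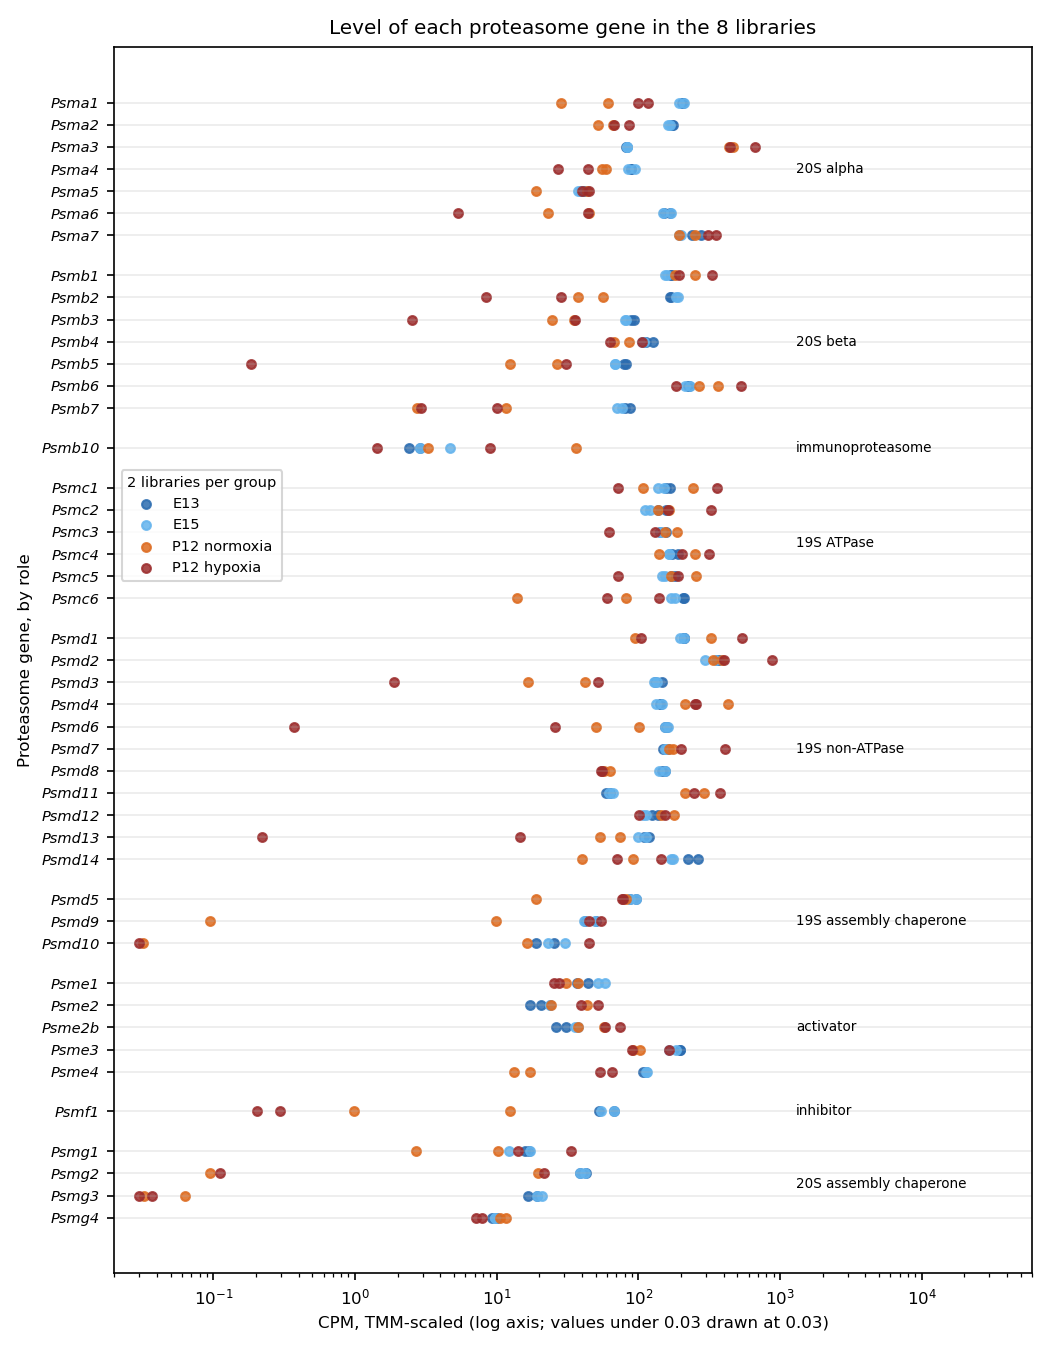
Level of the 45 proteasome genes that passed the low-count filter, in CPM on a log axis, with 1 point per library and colours for the 4 groups of 2 libraries. Embryonic points of a gene lie on top of each other, whereas the P12 points spread over a wide range, and Psma3 and Psmd11 lie above their embryonic points in all 4 P12 libraries.

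At P12 the even pattern gave way to a scattered one, with single subunits far above or far below their embryonic level in the same library. Counting genes that lay outside the embryonic range in all 4 P12 libraries, 7 were above it (15.5% of all tested genes were) and 20 were below it (22.8%), and 17 were neither. The 7 above were Psma3, Psmb1, Psmd4, Psmd7, Psmd11, Psme2 and Psme2b. Those below included 4 of 7 alpha-ring genes, 4 of 7 constitutive beta-ring genes, 1 of 6 ATPases, 5 of 11 other cap subunits, 1 of 3 cap chaperones, 2 of 5 activators, the inhibitor and 2 of 4 core chaperones. On library totals without TMM, an alternative added after the data had been seen, 2 genes (Psma3 and Psmd11) were above (10.4% of all tested genes) and 28 below (36.3%). The SD of log2(CPM per kilobase + 1) over the 44 genes was 1.10 to 1.18 in the embryonic libraries, 2.20 and 1.62 in normoxia and 1.83 and 2.39 in hypoxia. The 5 most abundant of the 44 genes held 21.7% to 24.0% of their summed signal in the embryo and 35.8% to 47.2% at P12. Neither measure was taken over all tested genes.

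**Figure D2:**
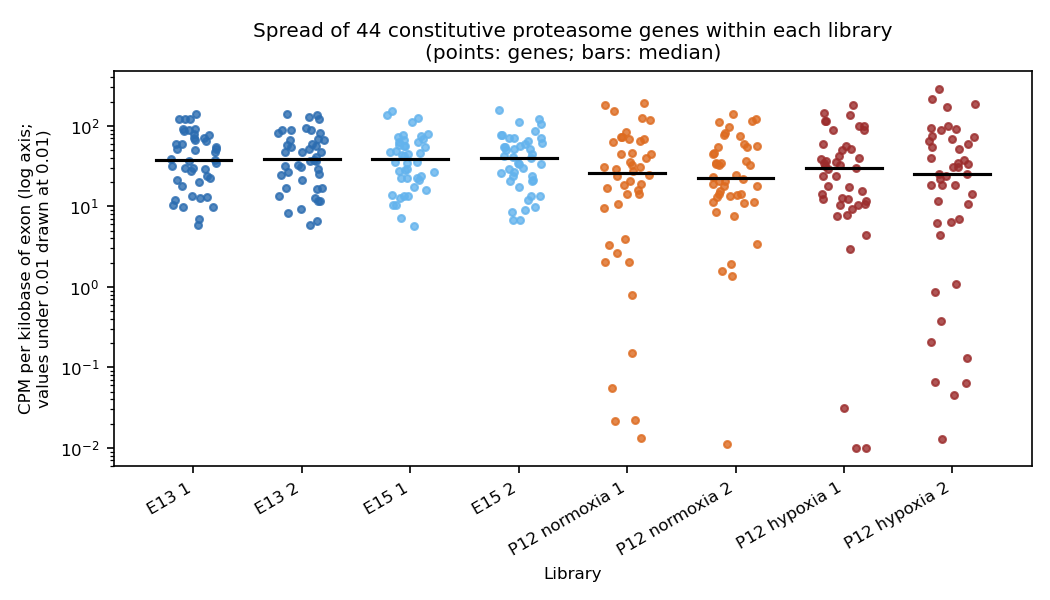
Level per kilobase of exon of the 44 constitutive genes in each library on a log axis, with 1 point per gene and a bar at the median. The embryonic libraries span a narrow band, and each P12 library has genes far under it, including 2 genes without a count in P12 hypoxia replicate 1.

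The scatter was also between replicates. The median absolute log2 difference between the 2 libraries of a group was 0.10 at E13, 0.09 at E15, 0.58 in normoxia and 0.81 in hypoxia for the 44 genes, and 0.19, 0.17, 0.67 and 0.63 for all tested genes. In normoxia 3 of 44 genes (Psmd9, Psmd10 and Psmg2) differed by more than 3 on the log2 scale, a share of 6.82% against 11.1% of all tested genes. In hypoxia 7 did (Psmb3, Psmb5, Psmd3, Psmd6, Psmd10, Psmd13 and Psmg2), 15.9% against 19.4%. Psmd10, the cap-assembly chaperone also called gankyrin, had 0.0318 and 16.4 CPM in normoxia and 0 and 44.8 CPM in hypoxia, while its embryonic libraries held 19.1 to 30.6 CPM. Psmd9, another chaperone of this set, had 0.0953 and 9.97 CPM in normoxia but 54.8 and 44.7 CPM in hypoxia, next to 41.4 to 50.4 CPM in the embryo. Fewer than 10 counts were found for 4 and 1 of the 44 genes in the normoxic libraries, where 30.5% and 20.8% of all tested genes had so few. In the hypoxic libraries 3 and 5 of the 44 genes did (37.0% and 42.0% of all tested genes). In each embryonic library 0 did (10.9% to 14.0%). The rank order of the 44 levels was shared by embryonic libraries (Spearman rho 0.97 to 0.99 over 6 pairs) and less so by P12 libraries (0.77 to 0.87 over 6 pairs) or by a P12 with an embryonic library (0.52 to 0.67 over 16 pairs). These correlations are descriptions over the same 44 genes, which share library and depth.

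Normoxic and hypoxic P12 cells were each compared with the mean of E13 and E15, to see how proteasome expression differs between the postnatal and the embryonic brain. Both comparisons use the same embryonic libraries, so their values are given side by side and their likeness is no separate evidence. In normoxia 3 of 45 genes rose (12.1% of all tested genes rose) and 5 fell (5.68% fell). In hypoxia 2 rose (13.2%) and 7 fell (12.9%). Counting both directions, 17.8% and 26.1% of all tested genes were called (edgeR, adjusted p under 0.05). The median log2 fold change of the 45 genes was -0.64 in normoxia and -0.37 in hypoxia, against -0.04 and -0.43 over all tested genes. These gaps were not stable: in normoxia the medians were -0.69 and -0.72 without normoxia replicate 2 and -0.64 and -0.39 in limma-voom, and in hypoxia they were -0.45 and -1.68 without hypoxia replicate 1. Groups lay apart for 10 genes higher and 24 lower in normoxia (27.3% and 32.1% of all tested genes) and for 11 and 23 in hypoxia (21.3% and 36.3%).

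The number of calls changed when a library was left out, over all genes as well as among the proteasome genes. Without any 1 of the 4 embryonic libraries the calls were Psma3 and Psme4 in normoxia, where 4.2% to 4.42% of all tested genes were called, and Psma3, Psmd11 and Psmg3 in hypoxia, where 7.03% to 7.3% were. In normoxia, 3 proteasome genes were called without normoxia replicate 1 (7.84% of all tested genes), 13 without normoxia replicate 2 (8.72% higher and 6.29% lower), 17 without hypoxia replicate 1 (26.8%) and 15 without hypoxia replicate 2 (26.0%). In hypoxia, 22 were called without hypoxia replicate 1 (30.6% of all tested genes) and 13 without hypoxia replicate 2 (25.4%).

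Among the alpha-ring genes, Psma3 rose in both P12 groups. It had 462 and 438 CPM in normoxia and 445 and 661 CPM in hypoxia, above 81.7 to 83.4 CPM in the embryo without overlap. Its log2 fold change was 2.44 (SE 0.21, edgeR adjusted p = 0.00146) in normoxia and 2.74 (SE 0.21, edgeR adjusted p = 0.000911) in hypoxia, n = 2 libraries per P12 group against 4. On library totals without TMM it still rose, by 1.61 and 1.78. Other genes of the alpha ring were lower or did not pass in edgeR. Psma7 had 194 to 276 CPM in the embryo and 352 and 308 CPM in hypoxia (0.55, SE 0.21, edgeR adjusted p = 0.103). In hypoxia DESeq2, relative log expression scaling and the fit of the compared groups only called Psma7 higher. These fits called 22.4%, 14.4% and 16.3% of all tested genes higher, and limma-voom did not call Psma7. DESeq2 called Psma6 lower in both P12 groups (15.7% and 22.7% of all tested genes). Psma2 fell from 161 to 175 CPM in the embryo to 51.7 and 66.1 CPM in normoxia and 86.2 and 67.4 CPM in hypoxia, with log2 fold changes of -1.52 (SE 0.28) and -1.13 (SE 0.28) and edgeR adjusted p = 0.0198 and 0.0328. Psma1 had 195 to 210 CPM in the embryo, 28.5 and 60.6 CPM in normoxia and 117 and 99.0 CPM in hypoxia, and it fell in normoxia (-2.19, SE 0.39, edgeR adjusted p = 0.0178) while its hypoxic value did not pass (-0.92, SE 0.37). Psma4 had 83.9 to 95.4 CPM in the embryo, 55.6 and 58.8 CPM in normoxia and 27.3 and 43.8 CPM in hypoxia, and passed in hypoxia alone (-1.33, SE 0.37, edgeR adjusted p = 0.0454). An antisense gene, AY074887, overlaps exons of Psma4, and had 0.0713 to 0.493 CPM in the embryo and 0 CPM in each P12 library. Reads of this pair cannot be told apart where they overlap, because the strand setting of the counting is not given in the sources used here.

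In the beta rings edgeR called 0 genes higher and 2 lower, both in hypoxia. DESeq2 called Psmb2 and Psmb7 lower in both P12 groups and Psmb1 higher in hypoxia. Of all tested genes, it called 15.7% lower in normoxia, and 22.7% lower and 22.4% higher in hypoxia. The limma-voom fit called Psmb2 and Psmb7 lower in normoxia (3.83% of all tested genes) and Psmb2 in hypoxia (2.08%). Psmb2 had 167 to 190 CPM in the embryo, 37.3 and 56.1 CPM in normoxia and 28.3 and 8.36 CPM in hypoxia, a log2 fold change of -3.28 in hypoxia (SE 0.61, edgeR adjusted p = 0.0148) and -1.93 in normoxia (SE 0.56), which missed the threshold. Psmb7, the subunit with trypsin-like activity, had 70.7 to 86.9 CPM in the embryo, 2.73 and 11.7 CPM in normoxia and 10.1 and 2.92 CPM in hypoxia. All 4 P12 libraries lay below the embryonic range, and the log2 fold change was -3.44 (SE 0.92, edgeR adjusted p = 0.0519) in normoxia and -3.59 (SE 0.92, edgeR adjusted p = 0.0374) in hypoxia. Nek6, on the opposite strand, overlaps exons of Psmb7. It had 38.7 and 34.9 CPM at E13, 185 and 189 CPM at E15, 222 and 149 CPM in normoxia and 87.4 and 213 CPM in hypoxia. Psmb5, which carries the chymotrypsin-like activity, had 67.9 to 81.4 CPM in the embryo, 26.5 and 12.4 CPM in normoxia and 30.9 and 0.185 CPM in hypoxia. Its hypoxic replicates lie on both sides of the normoxic ones, and neither comparison with the embryo passed. Psmb6, with caspase-like activity, had 212 to 232 CPM in the embryo, 363 and 267 CPM in normoxia and 184 and 534 CPM in hypoxia, so that the hypoxic libraries lie on both sides of the embryonic range.

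The ATPases of the cap stayed near their embryonic level as a sum, with 893.3 to 1027 CPM in the embryo and 927.5 to 1163 CPM at P12. edgeR and limma-voom called 0 of the 6 in either comparison. DESeq2 called Psmc6 lower in normoxia (15.7% of all tested genes) and Psmc2 and Psmc4 higher in hypoxia (22.4%). Psmc6 alone lay below its embryonic range in all 4 P12 libraries. On library totals without TMM the same sum was 1184 to 1410 CPM in the embryo and 667.2 to 785.0 CPM at P12, with no overlap.

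Of the other cap subunits, Psmd11, which clamps the lid to the core and stabilises the assembled particle, rose in both P12 groups. It had 59.2 to 66.2 CPM in the embryo, 291 and 215 CPM in normoxia and 246 and 378 CPM in hypoxia, without overlap. The log2 fold change was 2.01 (SE 0.27, edgeR adjusted p = 0.0065) and 2.31 (SE 0.27, edgeR adjusted p = 0.00307), and 1.16 and 1.35 on library totals without TMM. Psmd4, a ubiquitin receptor, had 133 to 147 CPM in the embryo, 428 and 212 CPM in normoxia and 252 and 255 CPM in hypoxia. It passed narrowly in normoxia (1.18, SE 0.30, edgeR adjusted p = 0.0479) and not in hypoxia (0.84, SE 0.31). Without normoxia replicate 1 its normoxic log2 fold change was 0.45, and on library totals without TMM 0.30, neither of them called. Psmd8 of the lid fell in both groups, from 141 to 155 CPM in the embryo to 57.1 and 63.3 CPM in normoxia and 54.2 and 55.5 CPM in hypoxia. The 4 P12 values lie close together, with log2 fold changes of -1.31 (SE 0.26, edgeR adjusted p = 0.0253) and -1.44 (SE 0.27, edgeR adjusted p = 0.0144).

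The largest fitted fold change in both comparisons was that of a core chaperone. Psmg3, a member of the set of chaperones that helps the alpha ring form, had 936 to 1203 counts in each embryonic library (at least 16.7 CPM) and 2 and 1 counts in normoxia and 0 and 1 in hypoxia. The embryonic level was 396 times the normoxic (95% interval from counting alone 135 to 1920) and 1080 times the hypoxic (194 to 42800), with edgeR adjusted p = 0.0113 and 0.00683. A same-strand gene model, Gm26938, overlaps exons of Psmg3 and had 0 CPM in all 8 libraries. Psmg2, another core chaperone, had 2162 to 2607 counts in each embryonic library, 3 and 606 in normoxia and 642 and 3 in hypoxia. Psmg1 had 12.2 to 17.1 CPM in the embryo, 2.70 and 10.2 CPM in normoxia and 14.2 and 33.7 CPM in hypoxia, and Psmg4 had 9.27 to 10.1 CPM in the embryo and 7.13 to 11.6 CPM at P12. Summed over the 4 chaperones, the level was 82.33 to 86.88 CPM in the embryo and 14.45 to 42.88 CPM at P12. The inhibitor Psmf1 had 52.6 to 67.4 CPM in the embryo, 0.984 and 12.5 CPM in normoxia and 0.202 and 0.296 CPM in hypoxia, and fell in hypoxia (-7.91, SE 1.44, edgeR adjusted p = 0.0139) but did not pass in normoxia (-3.16, SE 1.11). Psme4, an activator that caps the core without hydrolysing ATP, had 107 to 115 CPM in the embryo, 17.3 and 13.2 CPM in normoxia and 65.6 and 53.8 CPM in hypoxia. It fell in normoxia (-2.89, SE 0.36, edgeR adjusted p = 0.00506), and its hypoxic libraries lay between the other groups (-0.92, SE 0.32, edgeR adjusted p = 0.084). Psme2 and Psme2b, near-identical copies whose longest transcripts match at 789 of 794 aligned positions (99.4%), had counts in a ratio of 1.32 to 1.57 in every library and cannot be separated.

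The summed level of the 44 genes under TMM was 5547 and 5539 CPM at E13, 5115 and 5200 CPM at E15, 4855 and 4464 CPM in normoxia and 5007 and 6325 CPM in hypoxia. Both E13 libraries lay above both E15 libraries, and both normoxic libraries below all 4 embryonic ones, while the hypoxic libraries lay on either side of the embryonic range. On library totals without TMM, the sums were 7543, 7654, 6993 and 6870 CPM in the embryo and 3322, 3778, 3957 and 4041 CPM at P12, with no overlap. Without TMM the median log2 fold change over all tested genes was also lower, at -0.85 in normoxia and -1.32 in hypoxia, and the 45 genes had medians of -1.46 and -1.30. The order of the summed P12 and embryonic levels thus differed between the scalings for P12 hypoxia replicate 2, while Psma3 and Psmd11 were higher, and Psma2, Psmd8 and Psmg3 lower, under each of the scalings tried (TMM, relative log expression, upper quartile and none).

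**Figure D3:**
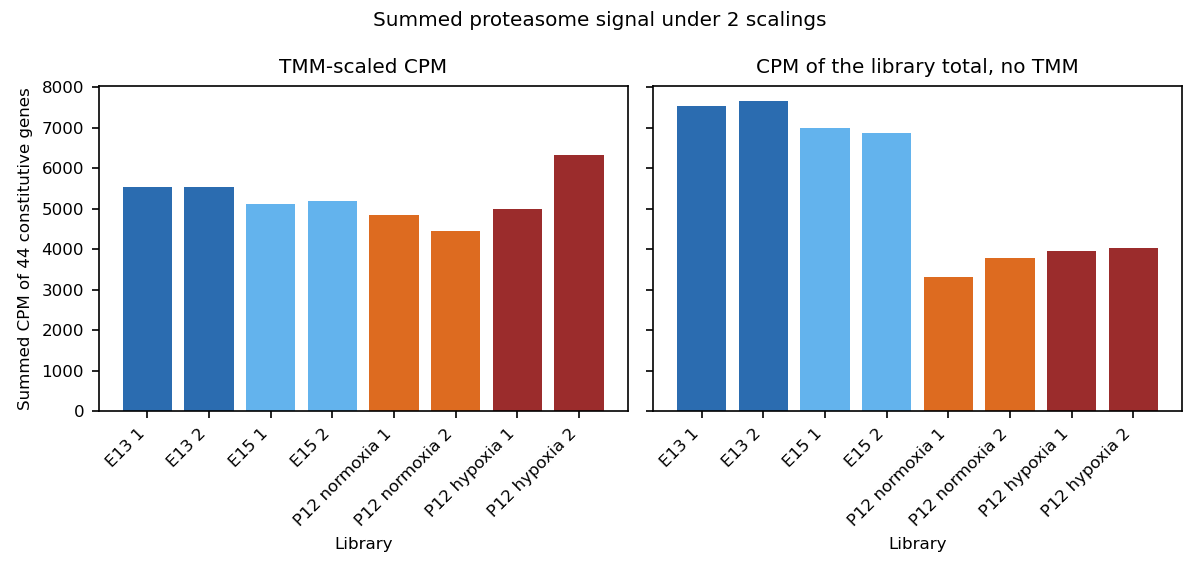
Summed CPM of the 44 constitutive proteasome genes in each library, under TMM scaling (left) and as CPM of the library total without TMM (right), both from 0. In the left panel 3 P12 bars are lower than the embryonic bars and that of P12 hypoxia replicate 2 is higher, and in the right panel all 4 P12 bars are lower.

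RefSeq start regions, 250 bases before to 50 after a transcription start on GRCm38.p6, were found for 41 of the 49 genes, with 44 windows in all. The core of the antioxidant response element, TGACNNNGC, to which the factors that induce proteasome genes can bind, was present on either strand in 6 windows (13.6%), against 12.4% of all 32851 windows. CCAAT was present in 14 (31.8%, against 37.4%) and the ETS-type motif CCGGAAG in 15 (34.1%, against 8.86%). No overlap between motifs was counted, and a match of letters is a description, not a bound site. Windows of 3 genes are printed 5′ to 3′ on the strand of the gene, with matches to the 3 motifs in capitals. Among the genes called in both P12 groups, these stand furthest from their embryonic level. Psma3, on the plus strand of chromosome 12 (gene at chr12:70974621-70996347), has its window at chr12:70974373-70974672 with 3 CCAAT matches. Psmd11, on the plus strand of chromosome 11 (gene at chr11:80428615-80473248), has its window at chr11:80428365-80428664 with 1 CCGGAAG match on the opposite strand. Psmg3, on the minus strand of chromosome 5 (gene at chr5:139823592-139826885), has its window at chr5:139826845-139827144 with 1 CCGGAAG match.
Psma3: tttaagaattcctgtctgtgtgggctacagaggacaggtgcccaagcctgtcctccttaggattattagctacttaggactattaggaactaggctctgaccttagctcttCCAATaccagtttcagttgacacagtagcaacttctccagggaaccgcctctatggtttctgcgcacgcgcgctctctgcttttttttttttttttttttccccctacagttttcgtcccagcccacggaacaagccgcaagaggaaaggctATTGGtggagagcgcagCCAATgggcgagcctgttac
Psmd11: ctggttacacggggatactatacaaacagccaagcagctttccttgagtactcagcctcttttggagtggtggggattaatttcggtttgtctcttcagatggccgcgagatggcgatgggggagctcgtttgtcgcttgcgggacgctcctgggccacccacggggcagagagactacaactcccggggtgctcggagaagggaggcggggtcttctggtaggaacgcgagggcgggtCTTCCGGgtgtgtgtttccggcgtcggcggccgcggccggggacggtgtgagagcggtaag
Psmg3: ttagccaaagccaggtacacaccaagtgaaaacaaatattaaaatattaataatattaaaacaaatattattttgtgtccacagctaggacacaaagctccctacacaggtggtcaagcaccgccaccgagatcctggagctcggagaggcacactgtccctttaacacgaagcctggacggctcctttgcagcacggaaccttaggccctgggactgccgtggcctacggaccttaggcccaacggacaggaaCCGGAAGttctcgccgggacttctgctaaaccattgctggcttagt
Psma3 and Psmd11, which both rose, share none of the 3 motifs in these windows, and CCGGAAG stands in Psmd11, which rose, and in Psmg3, which fell.

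The immunoproteasome was at or near the counting limit for 2 of its 3 genes. Psmb8, which takes the place of Psmb5, had 16 counts in E13 replicate 2 (0.285 CPM), 1 in normoxia replicate 1 and 0 in the other 6 libraries. Psmb9, which takes the place of Psmb6, had 4 counts in normoxia replicate 2 (0.130 CPM) and 0 in the other 7. Each library with 0 counts allows a level of up to 0.0482 to 0.111 CPM. In the embryo the means per kilobase were 82.7, 120 and 23.0 CPM for Psmb5, Psmb6 and Psmb7, and 0.0211, 0 and 1.89 CPM for Psmb8, Psmb9 and Psmb10. Psmb10, which takes the place of Psmb7, was counted in all 8 libraries, with 2.40 and 2.87 CPM at E13, 4.70 and 2.89 CPM at E15, 36.2 and 3.29 CPM in normoxia and 8.98 and 1.44 CPM in hypoxia. In edgeR no comparison of Psmb10 passed. Log2 fold changes against the embryo were 2.64 in normoxia and 0.72 in hypoxia (SE 1.13 and 1.14, edgeR adjusted p = 0.163 and 0.676). DESeq2 called Psmb10 higher in normoxia than in the embryo, where it called 20.7% of all tested genes higher. Normoxia replicate 1 stands alone at the high end, and both P12 groups overlap the embryo. Per kilobase, Psmb10 was above Psmb7 in that library (21.2 against 0.798 CPM) and in hypoxia replicate 1 (5.27 against 2.95 CPM) and below it in the other 6 libraries, where the pair lay closest in hypoxia replicate 2 (0.846 against 0.854 CPM). Microglial markers, which could accompany immunoproteasome genes, summed to 59.5 CPM in that library, 73.8 CPM in the other normoxic one, 0 and 88.2 CPM in hypoxia and 1.97 to 6.06 CPM in the embryo, with 5 to 11 of the 11 markers at 0 in each library. Their part in the Psmb10 values was not tested.

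**Figure D4:**
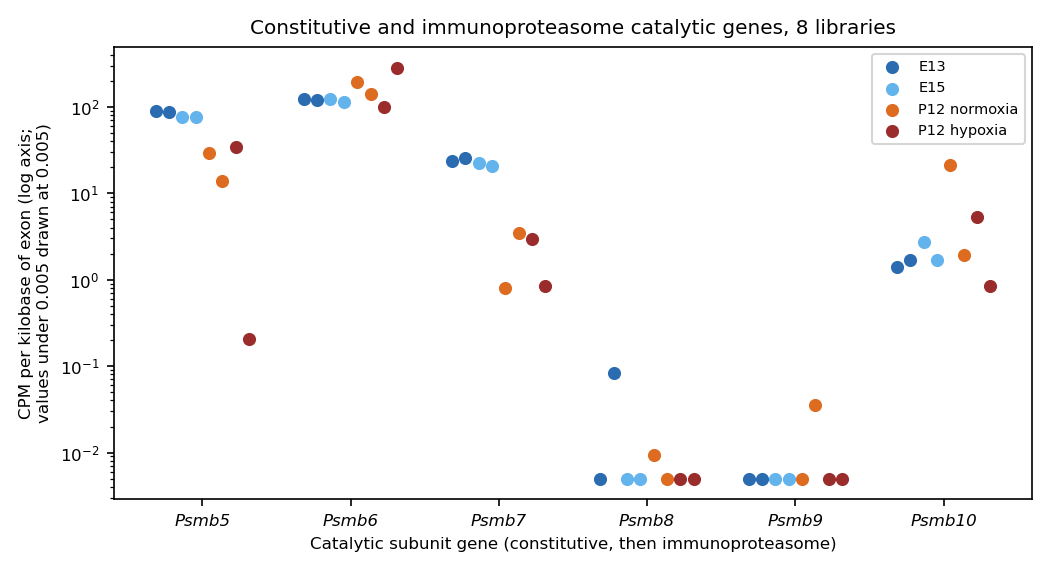
Level per kilobase of exon of the constitutive catalytic genes Psmb5, Psmb6 and Psmb7 and of their immunoproteasome counterparts Psmb8, Psmb9 and Psmb10, on a log axis, with 1 point per library. Psmb8 and Psmb9 sit at the bottom of the axis in nearly all libraries, and Psmb10 is highest in P12 normoxia replicate 1.

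Hypoxia was compared with normoxia at P12 to ask how chronic low oxygen after birth changes these cells. No proteasome gene passed: in edgeR's test 0 of 45 were called, where 3.02% of all tested genes were (0.196% higher and 2.82% lower). At an unadjusted p under 0.05, 2 genes were higher (4.73% of all tested genes) and 1 lower (13.5%), 3 in all, where 18.2% of all tested genes were. limma-voom called 0 of the 45 and 0.0% of all tested genes. DESeq2 called 7, 6 higher and 1 lower, where it called 6.87% of all tested genes higher and 13.1% lower. The 7 were Psma1, Psma2, Psma7, Psmd7, Psme4 and Psmg1 higher and Psmf1 lower. Log2 fold changes were positive for 26 genes and negative for 19, with a median of 0.27 against 0.00 over all tested genes. The medians of the 45 genes and of all tested genes were 0.06 and -0.24 in limma-voom and 0.50 and 0.00 in DESeq2. They were 0.45 and 0.00 without normoxia replicate 1, and 0.11 and 0.00 without normoxia replicate 2. They were 0.21 and -0.32 without hypoxia replicate 1, and 0.12 and -0.16 without hypoxia replicate 2. The 2 groups lay apart for 9 genes higher in hypoxia and 9 lower, where 13.1% and 20.1% of all tested genes did so. By role, 5 of 7 alpha-ring, 3 of 7 beta-ring, 4 of 6 ATPase, 5 of 11 other cap genes, 3 of 3 cap chaperones, 4 of 5 activators and 2 of 4 core chaperones had positive values.

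Psme4 came closest to the threshold, with 65.6 and 53.8 CPM in hypoxia against 17.3 and 13.2 CPM in normoxia (log2 fold change 1.97, SE 0.37, edgeR adjusted p = 0.0544). Besides DESeq2, it passed with a filter of at least 5 CPM in 2 libraries and without hypoxia replicate 1, hypoxia replicate 2 or normoxia replicate 1. It did not pass in the other 12 alternatives, among them limma-voom (adjusted p = 0.447), edgeR on the compared groups only (adjusted p = 0.738) and edgeR without any 1 embryonic library (adjusted p = 0.256 to 0.259). Psmf1 was lower in both hypoxic libraries, at 0.202 and 0.296 CPM against 0.984 and 12.5 CPM (-4.75, SE 1.28, edgeR adjusted p = 0.146), and its log2 fold change was -1.97 without normoxia replicate 2. Psma1 had 117 and 99.0 CPM in hypoxia and 28.5 and 60.6 CPM in normoxia (1.28, SE 0.41, edgeR adjusted p = 0.209), and passed without normoxia replicate 2 at 1.92. Psma7 had 352 and 308 CPM against 194 and 252 CPM (0.56, SE 0.25, edgeR adjusted p = 0.298). The groups do not overlap for these 4 genes, and with 2 libraries each the differences did not pass over all genes. Without hypoxia replicate 1, 3 proteasome genes were called higher and 8 lower (3.07% and 10.4% of all tested genes), and without hypoxia replicate 2, 2 were higher and 1 lower (1.59% and 6.17%). Without normoxia replicate 1 or normoxia replicate 2 the count was 2, where 4.14% and 4.49% of all tested genes were called. Oligodendrocyte-lineage markers summed to 1340 and 2550 CPM in hypoxia and 357 and 572 CPM in normoxia, and cell-cycle markers to 982 and 1120 CPM against 540 and 493 CPM. Mural markers summed to 1280 and 1020 CPM in hypoxia and 2520 and 1980 CPM in normoxia. Of the 8 neuron markers, Snap25, Syt1, Stmn2, Rbfox3 and Syp had 0 to 7.14 CPM in hypoxia and 10.8 to 130 CPM in normoxia. Map2 went the other way, with 177 and 310 CPM in hypoxia and 80.3 and 151 CPM in normoxia. Tubb3 (62.5 and 155 against 56.9 and 87.7 CPM) and Dcx (26.3 and 213 against 54.1 and 62.6 CPM) overlapped. All 8 summed to 267 and 687 CPM in hypoxia and 529 and 550 CPM in normoxia. The part of these markers in the proteasome values was not tested.

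**Figure D5:**
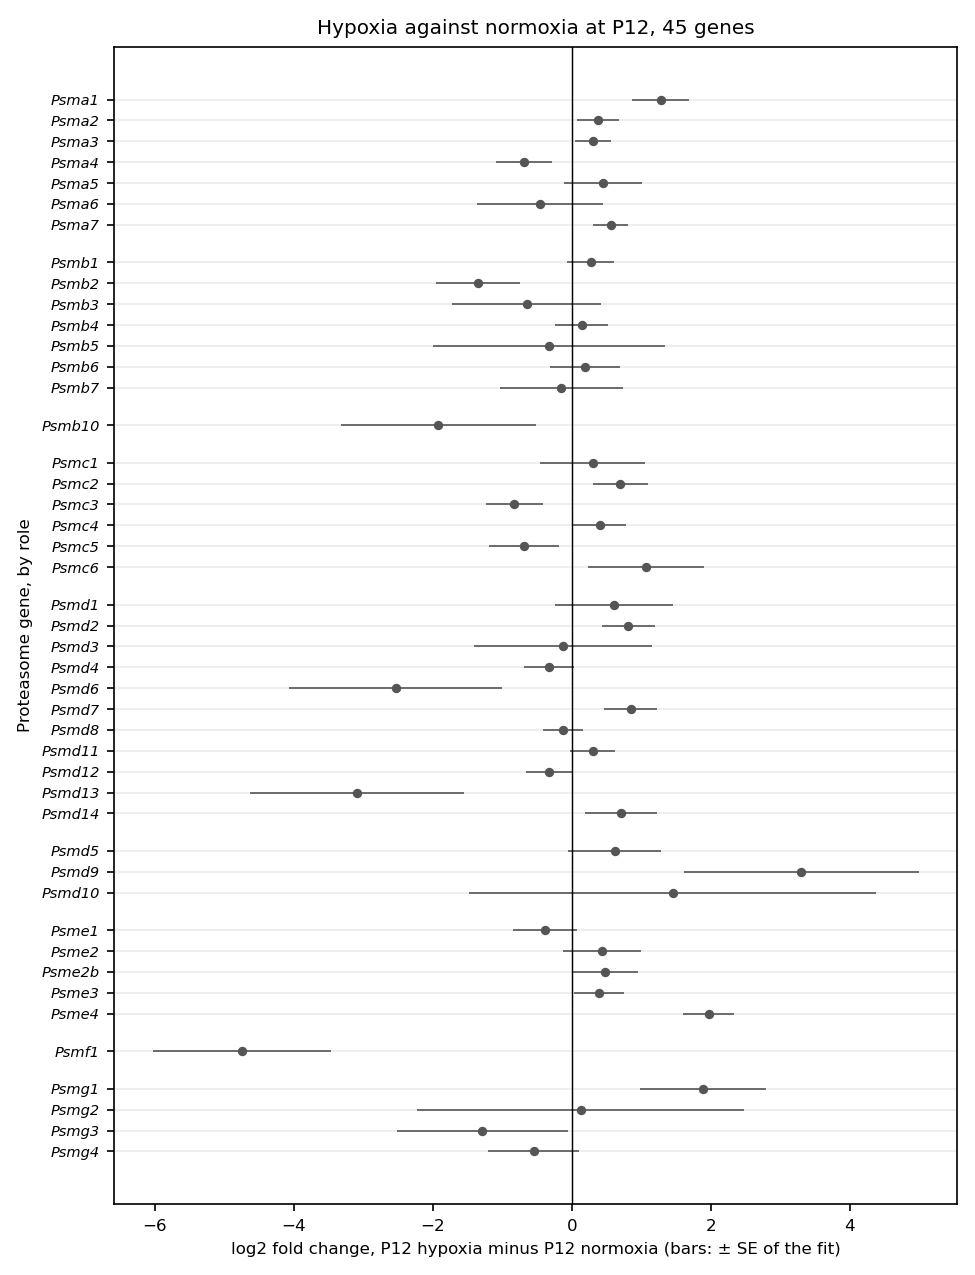
Log2 fold change between P12 hypoxia and P12 normoxia for the 45 genes, grouped by role, with bars of ± 1 SE from the edgeR fit of all 8 libraries (2 per group). Most values lie within 1 of 0, and those furthest out, such as Psmf1, Psmd9 and Psmd13, have wide bars.

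Partners of the proteasome were read from a list of 25 genes, all of which passed the filter. In hypoxia against normoxia and in E15 against E13, 0 of them were called, where 3.02% and 0.0% of all tested genes were. In normoxia against the embryo 4 rose (12.1% of all tested genes), and in hypoxia 3 did (13.2%). Pomp, the maturation factor that closes the 20S core, had 78.5 to 84.0 CPM in the embryo, 412 and 184 CPM in normoxia and 300 and 351 CPM in hypoxia, a rise of 1.87 (SE 0.34, edgeR adjusted p = 0.0179) and 2.0 (SE 0.34, edgeR adjusted p = 0.011) on the log2 scale. The cap deubiquitinase Uchl5 rose by 1.35 (SE 0.34) and 1.90 (SE 0.34), and the ubiquitin shuttle factor Rad23b by 1.67 (SE 0.39) and 1.82 (SE 0.39). Ngly1, which processes the proteasome-inducing factor Nfe2l1, rose in normoxia (1.72, SE 0.38), and its hypoxic value of 0.67 (SE 0.39) did not pass. Nfe2l1 itself had log2 fold changes of 0.40 (SE 0.56) and 0.37 (SE 0.56), not called. Zfand5, which activates the proteasome, fell by 2.40 (SE 0.26) and 1.62 (SE 0.25).

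Antigen-processing and interferon-response genes, which often accompany the immunoproteasome, numbered 12. Again 0 were called in hypoxia against normoxia (3.02% of all tested genes) or in E15 against E13 (0.0%). In normoxia against the embryo 1 rose (12.1% of all tested genes did) and 0 fell (5.68%). The gene that rose was the peptide transporter gene Tap2, with 0 to 0.209 CPM in the embryo and 7.68 and 19.2 CPM in normoxia. In hypoxia 3 rose (13.2% of all tested genes did), namely Tapbp (3.59, SE 0.79), Irf9 (2.15, SE 0.52) and Stat2 (1.70, SE 0.47). In the same comparison 2 fell (12.9%): B2m, the light chain of class I molecules, had 4.13 to 10.1 CPM in the embryo and 0.0336 and 0 CPM in hypoxia, and H2-D1, a class I heavy chain, had 15.2 to 22.2 CPM and 0 and 0.444 CPM.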

How the data were processed

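RNA sequencing libraries were made from 400 pg of total RNA with the NEBNext Ultra II kit, per the labels' protocols. The deposited values are raw counts per gene, in a separate table for each library. The tools named in the submitters' processing notes are Subread, STAR and cutadapt, and the build is GRCm38. Their versions, the gene annotation, whether strand was used and how multiply mapping reads were treated are not given in the sources used here. The 1980 rows of each table that name no gene held 0.205% to 0.266% of the counts and were left out. Coordinates and exon lengths came from GENCODE M21, which listed all 49 proteasome genes, 14 of them with an exon overlapping another gene.

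Counts were fitted with edgeR 4.0.16 in R 4.3.3 (glmQLFit, glmQLFTest, two-sided) over all 8 libraries and 4 groups, with TMM scaling and filterByExpr (minimum count 10, minimum total 15), leaving 19936 genes and 4 residual degrees of freedom. Benjamini-Hochberg adjustment ran over these genes, and a gene was called at an adjusted p under 0.05. The SE was computed from the F statistic. DESeq2 1.42.0, limma 3.58.1 (voom with sample quality weights), other scalings and filters, a block for the replicate number, fits of the compared groups only and the omission of each library were the alternatives, and where a group kept 1 library it was assumed to vary like the others. Scripts ran in Python 3.11.15 with pandas 2.3.3, and the fit was tested on simulated counts. Values of all libraries are given for the catalytic genes, for genes called or among the 4 of smallest p in a comparison, for genes that passed with no count in some library, and for the highest and lowest per kilobase in the embryo. The proteasome genes, the partner and antigen-processing lists and the cell type markers were chosen with earlier results of these data known, so no list was given a test of its own. Some results of the partner list are not reported here.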

Additional observations from a re-analysis of the deposited data

How the results depend on the processing

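The 25 pairs of a named gene and a comparison were picked from these data for a call or a small p, and their groups lay apart in each. Leaving out a library could therefore hardly turn a sign, and no conclusion on stability is drawn from the signs in those fits. Fold changes of the 25 pairs kept their sign under each of 17 alternatives. Psma3 was called in both P12 groups under all of them. Psmd4 lost its call under 13 of 17.

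Over the alternatives, the counts of called proteasome genes were as follows. Shares of all tested genes called in the same fit are given in brackets. In normoxia against the embryo edgeR called 8 with all libraries and TMM (17.8%). DESeq2 called 17 (36.4%), the fit of the compared groups only 17 (34.4%) and library totals without TMM 13 (19.1%). In hypoxia against the embryo (9), DESeq2 called 23, limma-voom 4, the compared groups only 14, library totals without TMM 15, and leaving out 1 library 3 to 22. In hypoxia against normoxia (0), DESeq2 called 7, the filter of at least 5 CPM in 2 libraries 1, and leaving out 1 library 0 to 11.

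Over all genes, hypoxia against normoxia had 602 calls, 3981 in DESeq2, 0 in limma-voom, 295 without a low-count filter, 0 with the compared groups only and 0 to 3018 without 1 library. E15 against E13 had 0 calls (690 at an unadjusted p under 0.05), 373 in DESeq2, 935 in limma-voom and 229 with the compared groups only. Normoxia against the embryo had 3541 calls, 7252 in DESeq2, 6731 with the compared groups only and 928 to 5990 without 1 library. Hypoxia against the embryo had 5208 calls, 9001 in DESeq2, 2390 in limma-voom and 1562 to 6836 without 1 library. Without TMM, 44.7% of normoxic and 30.8% of hypoxic calls were higher than the embryo, against 68.0% and 50.5% with it. The cause of these shifts was not tested.

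With the replicate number as a block, 5 proteasome genes were called in normoxia and 6 in hypoxia against the embryo and 0 in the other comparisons, and over all genes 1705, 2868 and, for hypoxia against normoxia, 1. Deviations from the group mean correlated between same-numbered libraries at -0.0385 to 0.00829 over 6 pairs of groups, so the numbers were not treated as a pairing.

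Mean summed levels of the 44 genes at E13, E15, normoxia and hypoxia were 5543, 5158, 4660 and 5666 CPM. They were 7598, 6932, 3550 and 3999 CPM without TMM, and 7890, 7086, 3580 and 4034 CPM of totals without mitochondrial, ribosomal protein and haemoglobin genes.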
